A study of Mus musculus with 6 samples.

Results

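The genes described here are 43 genes of heme turnover, iron handling and antioxidant defence, the classical target pathways of the Bach repressors and of the activator Nrf2, compared between Bach2 knockout and wildtype CD4 single-positive thymocytes of the mouse. They were chosen by gene symbol from a fixed list, and each was represented by the probe set with that single symbol and the highest mean over the arrays. Of the 43 genes, 40 had such a probe set, among 19938 genes tested, and G6pdx, Prdx5 and Prdx6 were not analysed here. Both groups came from mixed bone marrow chimeras on the C57BL/6 background. Male Rag1 knockout recipients, which cannot make T or B cells of their own, were lethally irradiated at 8 weeks of age. They received equal parts of lineage-depleted marrow from 8-week-old male Bach2 knockout donors (Ly5.1-) and wildtype donors (Ly5.1+). Thymocytes of each genotype were sorted 2 months later. The 3 wildtype and 3 knockout samples are labelled as biological replicates and, per the design text, came from separate mice. Every donor cell of the knockout group lacked Bach2, whatever its lineage, and the Ly5.1 allele went together with genotype in every sample.

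Bach1 and Bach2 are basic leucine zipper repressors that pair with small Maf proteins on antioxidant response elements and related sites. Nrf2, encoded by Nfe2l2, binds the same kind of element as an activator, and Keap1 keeps it low in cells without oxidative stress. Heme binds to Bach proteins and releases them from DNA, so that genes for heme breakdown, ferritin, glutathione synthesis and thioredoxin recycling are classically placed under this pair of opposing factors. In T cells Bach2 is better known for restraining effector genes, and Bach1 is the member best known for heme oxygenase.

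Expression was given on a log2 scale, on which a difference of 1 is a 2-fold change, and arrays carry no read depth. The number of arrays, 3 per genotype, limits the precision. Across all 35556 probe sets the arrays correlated at 0.981 to 0.988 within wildtype and 0.990 to 0.991 within knockout. Between the genotypes they correlated at 0.984 to 0.989, so wildtype arrays were no more alike than arrays of different genotype. Array values are listed throughout in the order of replicates 1, 2 and 3. The targeted gene was read first as a check of the labels. Bach2 (probe set 10503695) was at 7.89, 8.20 and 8.05 on the wildtype arrays, against 6.50, 6.42 and 6.52 on the knockout arrays. All knockout arrays lay below all wildtype arrays, at a difference of -1.57 (limma adjusted p = 0.000156). The sources used here do not state what was removed from the gene. The 11 measured of 13 markers of CD4 single-positive T cells, Cd3e and Cd4 among them, had mean levels of 10.43 to 10.55 in wildtype and 10.48 to 10.53 in knockout arrays. None of the 11 passed over all genes by limma, but 3 differed at an unadjusted p under 0.05, without overlap between the groups and not all in 1 direction. These were the interleukin-7 receptor Il7r at 0.49 (adjusted p = 0.0706), the costimulatory receptor Cd28 at 0.25 and the transcription factor Klf2 at -0.23.

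No heme, iron or antioxidant member passed the test over all genes. The members that came nearest to it were 3 disulfide reductases, 1.29-fold to 1.42-fold higher in knockout cells. After adjustment over all genes 0 members were higher and 0 lower in knockout cells by limma, where 0.351% of all genes were called higher and 0.216% lower. Without adjustment, 3 members were higher and 0 lower at p under 0.05, against 3.04% and 3.87% of all genes. The 3 were Gsr, Txnrd1 and Txnrd2, and the count was 5 with a prior that follows intensity or without wildtype replicate 1 and 6 without moderation of the spread. On the scale of the array values, the 95% interval of the difference lay for all 40 members within a 2-fold change in either direction, and for 37 it lay within 1.5-fold, the exceptions being Gsr, Slc7a11 and Txnrd2. For the 5 dim members (Hmox1, Slc40a1, Slc7a11, Nqo1 and Me1) this interval describes the array values and does not limit the fold of the transcript. Differences ran from -0.25 (Osgin1) to 0.51 (Gsr), with a standard error of 0.09 to 0.23.

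Most members leaned slightly to the knockout side. Of the 40, 28 lay above 0 and 12 below, where 46.2% of all genes lay above 0. Their median difference was 0.04, beside -0.01 over all genes. The 28 include Prdx1, Prdx2 and Me1, whose second probe sets gave -0.01, -0.07 and -0.0003. In 8 members the 3 knockout values all lay above the 3 wildtype values, and in 0 members below, while 5.13% of all genes separated upward and 6.57% downward. These 8 were Gsr, Txnrd1, Txnrd2, Slc48a1, Alas1, Fech, Fth1 and Txn1. The mean over all members was 7.13, 7.07 and 7.02 on the wildtype arrays, against 7.15, 7.11 and 7.12 on the knockout arrays. Wildtype replicate 1 thus lay within the range of the knockout arrays, and replicate 3 was the lowest. Leaving out knockout replicate 1 brought the median to -0.003. A filter on dim genes (mean over the 6 arrays above 4.942, the median of all values) was passed by 35 members, all but those 5. Of these 35 members, 24 lay above 0 and 11 below, and 8 separated upward and 0 downward. The nearer background for them is the 10614 genes that passed the same filter. Of those genes 50.3% lay above 0, with a median of 0.001, and 768 separated upward and 739 downward.

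**Figure D1:**
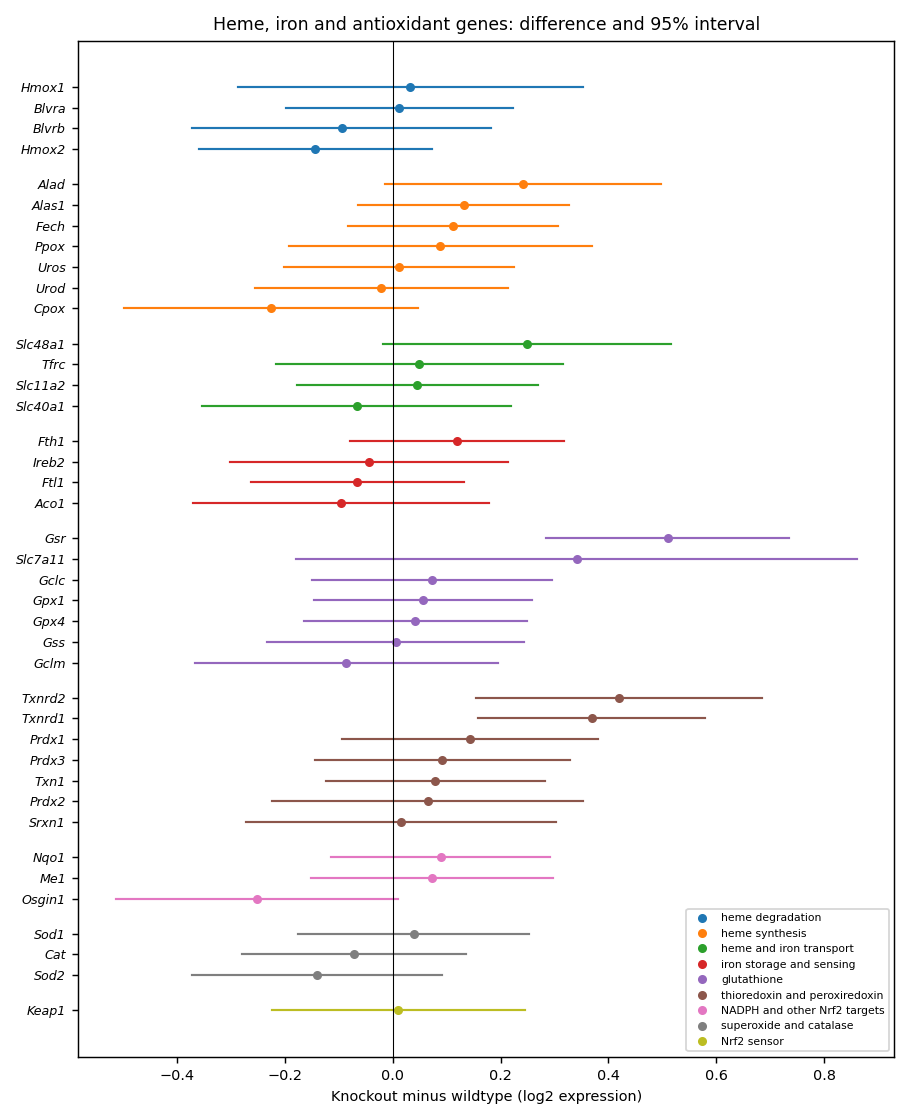
Knockout minus wildtype difference of the 40 measured members on the log2 scale (points) with limma's 95% interval (lines), grouped and coloured by role, from 3 arrays per genotype. The intervals of Gsr, Txnrd1 and Txnrd2 lie to the right of 0 and the other 37 include it.

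Glutathione genes held the member with the largest difference. Gsr, glutathione reductase, uses NADPH to return oxidised glutathione to its reduced form. Its level was 6.31, 6.29 and 6.38 on the wildtype arrays, against 6.73, 6.99 and 6.78 on the knockout arrays. The groups did not overlap, and the lowest knockout array was above the highest wildtype array by more than the spread among the wildtype arrays. The difference was 0.51 ± 0.10 (limma standard error, n = 3 each), 1.42-fold with a 95% interval of 1.22 to 1.66, and it missed the threshold (adjusted p = 0.0706). With the 10614 genes that passed the filter on dim genes the same difference passed (adjusted p = 0.0386). With single arrays removed it was 0.43 to 0.56 (adjusted p = 0.119 to 0.342).

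The enzymes that make glutathione had smaller differences than Gsr, which follows from Gsr having the largest of all members. Gclc, the catalytic subunit of glutamate-cysteine ligase and the rate-limiting step of synthesis, was at 6.80, 7.02 and 6.84 on the wildtype arrays, against 6.87, 7.004 and 7.01 on the knockout arrays. These values overlapped, with a difference of 0.07 ± 0.10 (adjusted p = 0.985) and an interval of 0.902-fold to 1.23-fold. Gclm, the modifier subunit, differed by -0.09 and Gss, glutathione synthetase, by 0.01. The peroxidases Gpx1 and Gpx4, which use glutathione to remove hydrogen peroxide and lipid peroxides, differed by 0.06 and 0.04. Slc7a11, the cystine importer that supplies cysteine for glutathione, was dim and the most variable member. It was at 3.67, 3.49 and 3.17 on the wildtype arrays, against 3.27, 3.75 and 4.34 on the knockout arrays, so the groups overlapped and knockout replicate 3 was the highest array. Its difference of 0.34 ± 0.23 (adjusted p = 0.919) dropped to 0.06 without that array. Whether glutathione itself was more reduced or more abundant is not shown by transcripts.

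Among the thioredoxin members the reductases Txnrd1 and Txnrd2 had the largest differences. Txnrd1, the cytosolic thioredoxin reductase, is a selenoprotein that passes electrons from NADPH to thioredoxin. It was at 6.55, 6.56 and 6.39 on the wildtype arrays, against 6.86, 6.92 and 6.84 on the knockout arrays. Every knockout array was above every wildtype array, by 0.37 ± 0.09 on average, 1.29-fold (95% interval 1.12 to 1.49; adjusted p = 0.217). Txnrd2, the mitochondrial thioredoxin reductase, was at 5.49, 5.34 and 5.43 on the wildtype arrays, against 6.01, 5.90 and 5.60 on the knockout arrays. The groups did not overlap here either, with knockout replicate 3 nearest to wildtype, and the difference was 0.42 ± 0.12, 1.34-fold (95% interval 1.11 to 1.61; adjusted p = 0.302). Neither passed over all genes, and leaving out an array gave 0.31 to 0.40 for Txnrd1 and 0.33 to 0.54 for Txnrd2. Txnrd3, a further thioredoxin reductase that is not a member, was named after its values were seen. It was dim and differed by 0.05, with overlapping groups. Gsr and both Txnrd genes encode related flavoproteins, and none of the 3 lies on the chromosome of Bach2 or of Ptprc, the gene of the Ly5.1 allele.

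**Figure D2:**
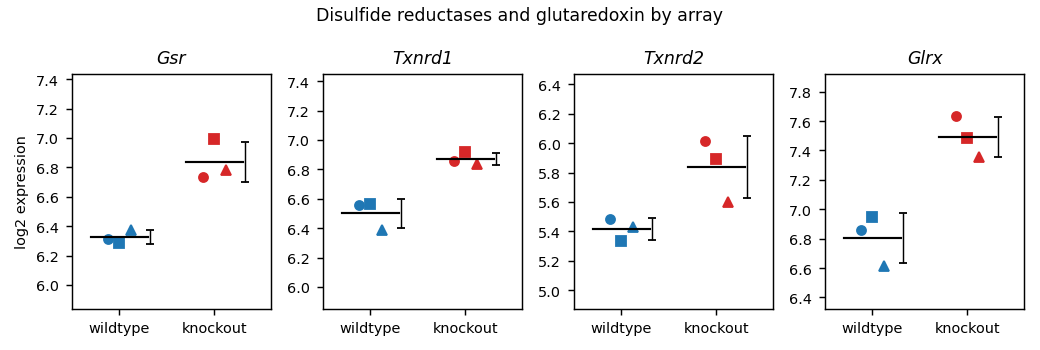
Log2 expression on each array for Gsr, Txnrd1, Txnrd2 and the glutaredoxin Glrx. Circles, squares and triangles are replicates 1, 2 and 3, horizontal lines are group means, and bars are the SD over 3 arrays. Each panel spans 1.6 log2 units, and in all 4 genes the knockout arrays lie above the wildtype arrays.

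Gsr, Txnrd1 and Txnrd2 had the largest differences of all members, so those of their substrates and partners were smaller by that ranking alone. Txn1, thioredoxin itself, was at 10.44, 10.35 and 10.46 on the wildtype arrays, against 10.56, 10.47 and 10.46 on the knockout arrays, barely separate, with a difference of 0.08 ± 0.09 (adjusted p = 0.980). The peroxiredoxins Prdx1, Prdx2 and the mitochondrial Prdx3, which remove peroxide with electrons from thioredoxin, differed by 0.14, 0.07 and 0.09, and in each of them the groups overlapped. The second probe sets of Prdx1 and Prdx2 gave -0.01 and -0.07, so a direction for these 2 genes depends on the probe set. Srxn1, sulfiredoxin, which repairs overoxidised peroxiredoxins and is a classical Nrf2 target, differed by 0.02 ± 0.13.

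Stretches upstream of the start sites show how the element reads in a member that separated by genotype and in members that did not. They are from RefSeq promoter windows of GRCm38.p6, which run from 250 bases before to 50 after a start site and were listed for 33 of the 40 measured members, Gsr not among them. Capitals mark the match to TGACNNNGC, the core of the antioxidant response element, or in Srxn1 to TGACTCA, the shorter site that AP-1 and Bach proteins share. Both motifs were searched on both strands, and they overlap where TGACTCAGC occurs. Each stretch is 5′ to 3′ on the strand of the gene, and the matches in these 4 stretches read on the opposite strand.
Txnrd1: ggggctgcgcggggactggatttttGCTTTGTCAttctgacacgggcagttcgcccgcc
Gclm: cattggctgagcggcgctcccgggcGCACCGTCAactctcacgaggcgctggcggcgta
Prdx1: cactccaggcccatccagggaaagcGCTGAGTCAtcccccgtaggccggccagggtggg
Srxn1: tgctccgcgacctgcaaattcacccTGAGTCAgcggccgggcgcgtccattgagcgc

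The Txnrd1 stretch is chr10:82859089-82859147, in 1 of its 3 listed windows, and its match ends 83 bases before the start site. That of Gclm is chr3:122245398-122245456 (125 bases before), that of Prdx1 chr4:116685441-116685499 (124 bases) and that of Srxn1 chr2:152105454-152105510 (38 bases), all on the plus strand. The Prdx1 match is the full TGACTCAGC. This form was found in 2 of the 33 members (Me1 and Prdx1), or 6.06%, and in 0.503% of all 27025 listed genes. TGACNNNGC occurred in 7 of the 33 members (Blvra, Gclm, Me1, Prdx1, Sod1, Srxn1 and Txnrd1), or 21.2%, and in 14% of all listed genes. TGACTCA occurred in Me1, Osgin1, Prdx1 and Srxn1, or 12.1% of the members and 5.95% of all listed genes. TGACNNNGC was present in Txnrd1 but not in the 1 window of Txnrd2. It was also present in Gclm and Srxn1, whose expression overlapped between the genotypes. In Srxn1 this match lies after the start site, outside the stretch shown, which marks TGACTCA. A match of letters is a description of the window and says nothing of binding.

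Heme breakdown showed no separation. Hmox1, the inducible heme oxygenase and the textbook target of Bach1, was dim at 5.06, 4.83 and 4.56 on the wildtype arrays, against 4.96, 4.63 and 4.95 on the knockout arrays. The groups overlapped fully, the difference was 0.03 ± 0.14 (adjusted p = 0.998), and its sign turned when 1 of 3 arrays was left out (-0.10 to 0.16). The interval of its array values was 0.820-fold to 1.28-fold. Hmox2, the constitutive isoform, differed by -0.14 ± 0.10. The biliverdin reductases Blvra and Blvrb, which convert the product of heme oxygenase to bilirubin, differed by 0.01 and -0.09.

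Heme synthesis held small differences in both directions. Alas1, the rate-limiting first enzyme outside the erythroid lineage, was at 6.65, 6.65 and 6.58 on the wildtype arrays, against 6.74, 6.80 and 6.74 on the knockout arrays. The groups were separate but close, at a difference of 0.13 ± 0.09 (adjusted p = 0.907). Fech, ferrochelatase, which inserts iron in the last step, was also separate, at 0.11 ± 0.09. Alad, the second enzyme, differed by 0.24 ± 0.12 (adjusted p = 0.770), with wildtype replicate 1 among the knockout values. Cpox, coproporphyrinogen oxidase, went the other way at -0.23 ± 0.12 (adjusted p = 0.841), again with overlap. Uros, Urod and Ppox lay between -0.02 and 0.09. Alad and Urod share the chromosome of Bach2 and Ppox that of Ptprc, and of the 40 members 5 and 2 do so.

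Of the 4 heme and iron transporters, Slc48a1 showed the largest difference. This carrier moves heme out of endosomes and lysosomes into the cytosol. It was at 8.10, 7.94 and 7.66 on the wildtype arrays, against 8.14, 8.11 and 8.20 on the knockout arrays. The knockout arrays were tightly grouped just above wildtype replicate 1, and the spread was in the wildtype arrays. The difference was 0.25 ± 0.12, 1.19-fold (95% interval 0.988 to 1.43; adjusted p = 0.771), and without wildtype replicate 3 it was 0.13.

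Iron uptake and export gave no separation. Tfrc, the transferrin receptor, was at 7.17, 7.36 and 7.04 on the wildtype arrays, against 7.41, 7.20 and 7.11 on the knockout arrays, a difference of 0.05 ± 0.12 that turned negative without either of 2 arrays. Slc40a1, ferroportin, the known iron exporter of cells, was dim at 3.62, 3.398 and 3.91 on the wildtype arrays, against 3.59, 3.52 and 3.62 on the knockout arrays (difference -0.07 ± 0.13, and 0.07 without wildtype replicate 3). Slc11a2, which carries ferrous iron across endosomal membranes, differed by 0.05.

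Ferritin stores iron in a shell of heavy and light chains. The heavy chain Fth1 was at 11.27, 11.29 and 11.19 on the wildtype arrays, against 11.35, 11.40 and 11.36 on the knockout arrays. All knockout arrays were above all wildtype arrays, but by only 0.12 ± 0.09, 1.09-fold (adjusted p = 0.933). The light chain Ftl1 lay on the other side of 0, at -0.07 ± 0.09. The iron regulatory proteins Aco1 and Ireb2, which control ferritin and transferrin receptor after transcription, differed by -0.10 and -0.04. Ferritin protein can therefore differ without its transcript, and no protein was measured here.

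**Figure D3:**
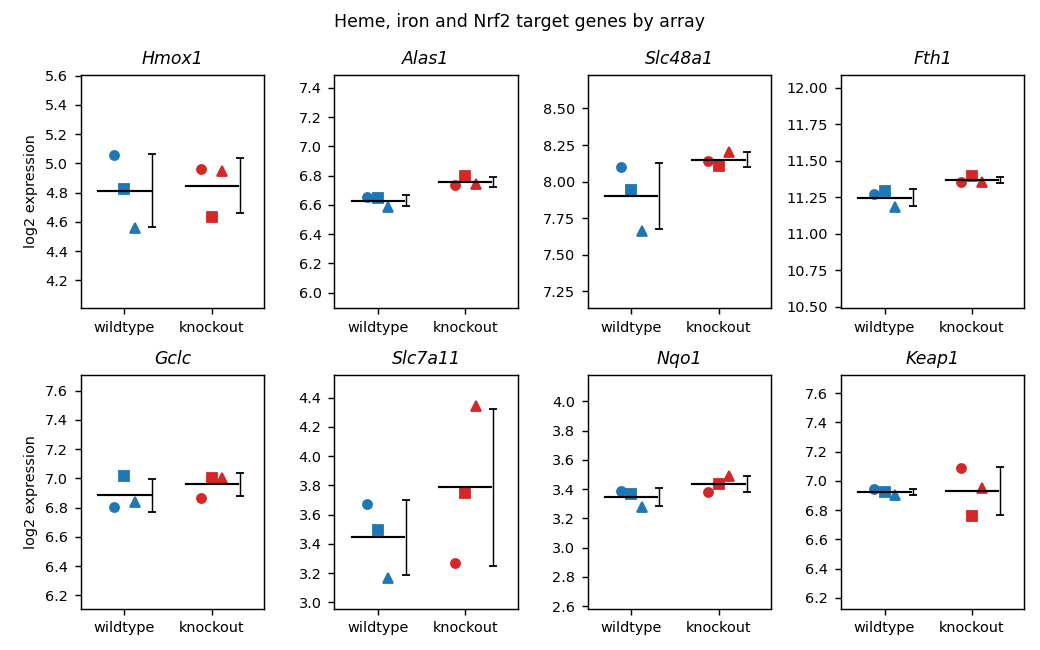
Log2 expression on each array for 8 members of heme turnover, iron handling and the Nrf2 response. Circles, squares and triangles are replicates 1, 2 and 3, lines are group means, and bars are the SD over 3 arrays, with each panel spanning 1.6 log2 units. Alas1, Slc48a1 and Fth1 are separate by small margins, while Hmox1, Gclc, Slc7a11, Nqo1 and Keap1 overlap.

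The remaining Nrf2 targets had smaller differences than the reductases, which follows from the reductases having the largest of all members. Nqo1, a quinone reductase and the usual marker of Nrf2 activity, was dim at 3.39, 3.37 and 3.28 on the wildtype arrays, against 3.38, 3.43 and 3.49 on the knockout arrays, overlapping at a difference of 0.09 ± 0.09. Me1, malic enzyme, which makes NADPH, was also dim and differed by 0.07. Osgin1, a growth inhibitor induced by oxidative stress, had the lowest difference of all members at -0.25 ± 0.12 (adjusted p = 0.763), with overlapping groups. Sod1, the cytosolic superoxide dismutase, was at 10.68, 10.53 and 10.65 on the wildtype arrays, against 10.75, 10.60 and 10.62 on the knockout arrays, a difference of 0.04 ± 0.10. The mitochondrial Sod2 and catalase (Cat) differed by -0.14 and -0.07. Keap1 was at 6.95, 6.92 and 6.90 on the wildtype arrays, against 7.09, 6.76 and 6.95 on the knockout arrays, so that the knockout arrays spread around the wildtype ones (0.01 ± 0.10). The sign of Keap1 turned under a second quantile normalization, under array weights and without knockout replicate 1, and that of Sod1 without wildtype replicate 2 or knockout replicate 1.

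Genes of the same pathways outside the 43 were described from lists written from pathway knowledge. Over 106 measured genes of 6 such lists, Bach2 apart, 1 was higher and 0 were lower after adjustment over all genes by limma. Of all genes, 0.351% were called higher and 0.216% lower. At an unadjusted p under 0.05, 4 of the 106 were higher and 5 lower, where 3.04% and 3.87% of all genes were. Of the 106 genes 44 lay above 0 and 62 below, a share of 41.5% above 0 beside 46.2% of all genes, and their median difference was -0.01.

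Glrx, glutaredoxin 1, was the gene that passed. It reduces mixed disulfides between proteins and glutathione and is itself recycled by glutathione and Gsr. Its level was 6.86, 6.95 and 6.61 on the wildtype arrays, against 7.64, 7.48 and 7.36 on the knockout arrays, with a clear gap between the groups. It rose by 0.69 ± 0.12, 1.61-fold (limma adjusted p = 0.0345). The size of the difference held when arrays were left out (0.59 to 0.76), but the call was kept only without wildtype replicate 2 (adjusted p = 0.0381) and ranged from 0.0662 to 0.146 without any of the other 5. It also missed the threshold with all probe sets in the fit (adjusted p = 0.259) and without moderation of the spread (0.496).

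**Figure D4:**
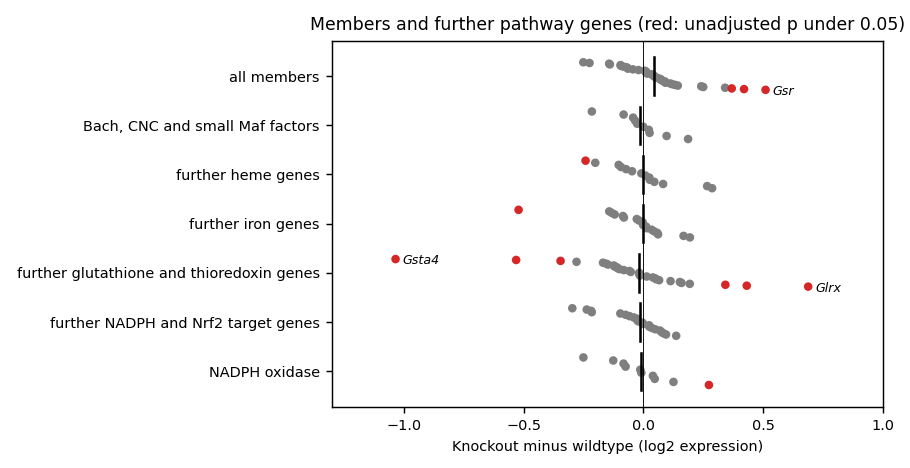
Knockout minus wildtype differences on the log2 scale for the 40 members and for 6 further pathway lists, 1 point per gene, with Bach2 left out. Red points had an unadjusted p under 0.05, and black lines are list medians. Glrx at 0.69 and Gsta4 at -1.04 are the extremes, and the medians lie near 0.

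With Bach2 left out, the list of further glutathione and thioredoxin genes had the widest range, from -1.04 to 0.69 over 31 measured genes. In it 3 were higher and 3 lower at an unadjusted p under 0.05, where 3.04% and 3.87% of all genes were. The following 5 genes were named after their values were seen. Gsta4, a glutathione transferase that clears products of lipid peroxidation, was at 7.33, 6.85 and 6.82 on the wildtype arrays, against 6.14, 6.22 and 5.53 on the knockout arrays, 2.05-fold lower without overlap. It narrowly missed the threshold (adjusted p = 0.0536), and passed with a prior that follows intensity (0.0180), without dim genes (0.0423), after median centring (0.0484), with array weights (0.0479) and with the replicate number as a block (0.0149). With an array removed it was 0.0773 to 0.143. Gstt2, another transferase, was at 7.52, 7.57 and 7.45 on the wildtype arrays, against 8.09, 7.87 and 7.87 on the knockout arrays, higher by 0.43 ± 0.10 (adjusted p = 0.140). Gsto1, an omega-class transferase, was at 5.50, 5.99 and 5.63 on the wildtype arrays, against 5.43, 5.10 and 4.996 on the knockout arrays, separate at a difference of -0.53 ± 0.15 (adjusted p = 0.305). Values of these 3 transferases thus lay on both sides of 0. Gpx7, a peroxidase of the endoplasmic reticulum, was dim and also separate, at -0.35 ± 0.13 (adjusted p = 0.591). Slc3a2, the heavy chain that brings Slc7a11 and other amino acid carriers to the cell surface, was at 8.17, 8.15 and 8.14 on the wildtype arrays, against 8.54, 8.51 and 8.44 on the knockout arrays, higher by 0.34 ± 0.09 (adjusted p = 0.227).

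The transcription factors that act on these pathways differed little apart from Bach2. In the list of Bach, CNC and small Maf factors and the ligase partners of Keap1, it was the 1 of 11 genes that passed or had an unadjusted p under 0.05. Bach1 was at 7.75, 7.58 and 7.64 on the wildtype arrays, against 7.73, 7.92 and 7.88 on the knockout arrays. This was a difference of 0.19 ± 0.10 with overlap (adjusted p = 0.833) and a 95% interval of -0.03 to 0.41. Nfe2l2, which encodes Nrf2, was at 8.94, 8.99 and 8.92 on the wildtype arrays, against 9.07, 9.01 and 9.05 on the knockout arrays. It was separate by 0.10 ± 0.09 (adjusted p = 0.960). The small Maf gene Maff differed by -0.22 ± 0.12 (adjusted p = 0.845). Since Nrf2 is governed mostly through its protein, its transcript level does not show its activity.

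In the 4 other lists 0 genes passed by limma. Of all genes, 3.04% were higher and 3.87% lower at an unadjusted p under 0.05. Among 14 further heme genes 1 was lower at an unadjusted p under 0.05, Pgrmc1, a heme-binding membrane protein, at -0.24 ± 0.10, and Slc25a38, the mitochondrial glycine carrier of heme synthesis, was at 0.29 ± 0.14. Among 19 further iron genes 1 was lower unadjusted, the ferric reductase Cybrd1 at -0.52 ± 0.15 (adjusted p = 0.325), and Cp, ceruloplasmin, was at 0.19. Among 22 further NADPH and Nrf2 target genes 0 reached that level in either direction, with Abcc1, an exporter of glutathione conjugates, at -0.22 and Idh1, an NADPH-producing isocitrate dehydrogenase, at -0.30. Among 10 NADPH oxidase genes Nox1 was higher unadjusted at 0.27, a dim gene, and Ncf1, a subunit of the phagocyte oxidase, was at -0.25.

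Markers of other cells and states differed between the groups as well, and the single markers given here were chosen after their values were seen. All 9 measured regulatory T cell markers had lower values in knockout cells, 4 of them past the test, with a mean level of 7.31 to 8.12 in wildtype and 6.47 to 6.62 in knockout arrays. All 9 measured of 10 double-positive thymocyte markers had higher values, 4 of them at an unadjusted p under 0.05 and 0 past the test by limma, with means of 6.70 to 6.97 against 6.90 to 7.88 and the highest on knockout replicate 3. The macrophage and monocyte list (16 measured of 17) ran from 4.02 to 4.25 in wildtype and from 4.23 to 4.55 in knockout arrays, and 12 of the 16 were dim. In this list Lyz2, lysozyme, rose by 1.39 (limma adjusted p = 0.0256). The complement genes C1qc and C1qa were separate at 0.71 and 0.42, as was Vcam1 at 0.26, while C1qb was at 0.35 with overlap. The integrin Itgam lay on the other side, separate at -0.33 (adjusted p = 0.528). Csf1r, Adgre1 and Mrc1 were at 0.08, -0.06 and 0.24, all with overlap. The neutrophil list (8 measured, 7 of them dim) ran from 3.80 to 4.10 in wildtype and from 3.97 to 4.27 in knockout arrays. Of its 8 genes 4 lay above 0 and 4 below, with a median difference of 0.016. S100a8 at 0.97 and S100a9 at 0.78 had an unadjusted p under 0.05, and neither passed the test. Mpo and Elane lay on the other side at -0.14 and -0.11, both with overlap. Of 11 measured cell cycle markers 10 had lower values, with means of 6.72 to 7.06 against 6.59 to 6.77. Top2a at -0.44 and Aurkb at -0.28 had an unadjusted p under 0.05, and neither passed the test. Erythroid markers (8 measured of 14), whose cells make most heme, stayed at 4.33 to 4.46 and 4.32 to 4.36. The part of these cells in the differences of Gsr, Txnrd1, Txnrd2 and Glrx was not tested. Slc7a11 was highest on the knockout array with the highest double-positive mean. Among the wildtype arrays it was highest where that mean was lowest, and a relation between them was not tested. In sorted bulk RNA, a different mix of cells and a different amount of RNA per cell cannot be told apart.

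**Figure D5:**
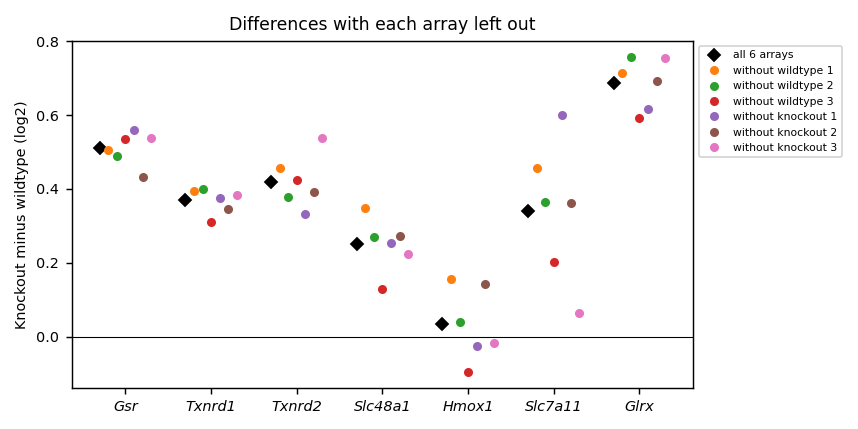
Knockout minus wildtype difference on the log2 scale for 6 members and Glrx, with all 6 arrays (black diamonds) and with each array left out in turn (coloured circles). Gsr, Txnrd1, Txnrd2 and Glrx stay above 0.3 in every fit, while Hmox1 falls on both sides of 0 and Slc7a11 runs from 0.06 to 0.60.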

How the data were processed

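RNA from sorted thymocytes was amplified, labelled with biotin and hybridised to 1-colour arrays, 1 per sample. The authors deposited normalized log2 values. RMA and Partek are named, with no version, per the submitters' processing notes. The log2 scale was read from the values (1.10 to 13.2, array medians 4.93 to 4.97). No genome build is stated in the sources used here. Symbols came from the platform annotation, in which 21789 of 35556 probe sets had 1 symbol, 1621 several and 12146 none listed. Because RMA equalises the distributions, a global shift in expression would be hidden.

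Knockout minus wildtype was fitted with limma 3.58.1 (lmFit, eBayes, two-sided) in R 4.3.3 over 19938 genes, with Benjamini-Hochberg adjustment and a threshold of 0.05. The members and gene lists were chosen with earlier results of these data known. Array values are given for members with an unadjusted p under 0.05, for separate members differing by at least 0.15 and for defining members of each role; other pathway genes are those past the threshold, or else the 2 with the smallest p. The remaining members are given by their differences. Array values of Txn1, Bach1 and Nfe2l2 were added after they were seen. The procedure was tested on simulated data. Alternatives were other priors, no moderation, array weights, a dim-gene filter, centring, quantile normalization, all probe sets, their mean per gene, the replicate number as a block and each array left out. Figures used matplotlib 3.10.9.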

Additional observations from a re-analysis of the deposited data

How the results depend on the processing

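The counts over all genes moved with the estimate of the spread and with which arrays were used. Of all genes, 70 were higher and 43 lower; without moderation 1 and 0 were, with all probe sets in the fit 29 and 8, and with an intensity trend 78 were lower. Leaving out each array gave 29 to 82 higher and 18 to 66 lower. Among the members, 0 passed under 15 of 16 alternatives, and without dim genes 1 did, Gsr. At an unadjusted p under 0.05 the 3 higher members became 5 with an intensity trend (with Slc48a1 and Fth1), 6 without moderation (with Alas1, Fech and Fth1) and 3 to 5 when an array was left out, the 5 without wildtype replicate 1 (with Alad and Slc48a1). Gsr, Txnrd1 and Txnrd2 were among them in every fit. The lower members were 1 with array weights (Osgin1) and 0 to 1 when an array was left out. The median difference of the members was -0.0029 to 0.069 in those fits.

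Signs turned in members near 0, and the cause was not tested. With each array left out, Hmox1 ranged from -0.096 to 0.156 (negative without wildtype replicate 3, knockout replicate 1 or knockout replicate 3) and Tfrc from -0.037 to 0.135 (negative without wildtype replicate 3 or knockout replicate 1). Slc40a1 ranged from -0.188 to 0.067 (positive without wildtype replicate 3), Sod1 from -0.0088 to 0.068 (negative without wildtype replicate 2 or knockout replicate 1) and Keap1 from -0.067 to 0.096 (negative without knockout replicate 1). Keap1 was also negative after a second quantile normalization (-0.0029) and with array weights (-0.011).

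Same-numbered arrays of the genotypes are not known to be paired. Their deviations from the group means correlated at 0.21, 0.11 and -0.07 for replicates 1, 2 and 3, and not every array correlated best with its own number. With the replicate number as a block, 0 members passed, and 3 were higher and 0 lower at an unadjusted p under 0.05, with a median difference of 0.04. Arrays give no depth, and signal limits what can be said of the members that did not pass the filter on dim genes (Hmox1, Nqo1, Slc7a11, Slc40a1 and Me1).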
